A study of Homo sapiens with 2 samples.

Results

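The cells described here are those of the human Merkel cell carcinoma line WaGa that held few transcripts of the cell cycle. A cell was taken when it had no unique molecular identifier (UMI, 1 counted transcript) of the 4 mitotic genes MKI67, TOP2A, CDK1 and CCNB1, and less than 50 counts per 10000 of the replication-dependent histone gene HIST1H4C. It also had to show fewer than 4 of the 8 G1/S genes CCNE1, CCNE2, CDC6, GINS2, UNG, MCM5, DTL and CDC45, and less than 10 counts per 10000 of ID1 and ID3 together. These conditions were met by 1371 of 10816 cells. They were 550 of the 4137 cells labelled untreated (13.3%, 95% exact interval 12.3 to 14.4) and 821 of the 6679 cells labelled treated (12.3%, 11.5 to 13.1). The levels of these 15 genes chose the cells, so their values, and every comparison of the chosen cells with the rest, are given as a description without a test.

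WaGa is an established line that grows in suspension, and was kept in RPMI medium. One library was made from cells without treatment and 1 from cells given domatinostat, a drug against class I histone deacetylases (HDACs) that was dissolved in DMSO. The labels gave no dose and no time, and did not say whether the untreated cells received the solvent. With 1 library per condition there was no replicate, so the intervals cover counting error only, and treatment, culture and library cannot be told apart. A cell's library was read from the word at the end of its name in the deposited table.

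As background, a dividing cell makes its transcripts in waves. The G1/S wave serves the start of DNA replication, histone transcripts accompany replication, and the G2 and M wave serves chromosome segregation. Between divisions a cell in G1 holds few of these transcripts, as does a cell that has left the cycle, and the low level of such RNA alone does not tell them apart. Merkel cell carcinoma is a neuroendocrine skin cancer with transcription factors of neurons and of Merkel cells. ID1 and ID3 bind and hold back the basic helix-loop-helix factors to which several of these belong.

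The cells low in cycle transcripts were shallower than the rest. The median was 6624 UMIs per cell against 11691 in the other cells of the library labelled untreated, and 6062 against 9150 in the library labelled treated. Cells under 5000 UMIs made up 30.4% of the low and 6.16% of the other untreated cells, and 34.5% and 11.4% of the treated ones. The mitotic condition asks for no UMI and the G1/S condition for few genes seen, so a shallow cell meets these more easily. The limits on HIST1H4C and on ID1 and ID3 are relative to a cell's total counts and are not eased in the same way. In the library labelled untreated, 43.7% of the cells under 4000 UMIs met the rule, against 4.81% of those from 9000 UMIs. In the library labelled treated the shares were 34.7% and 1.53%.

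**Figure D1:**
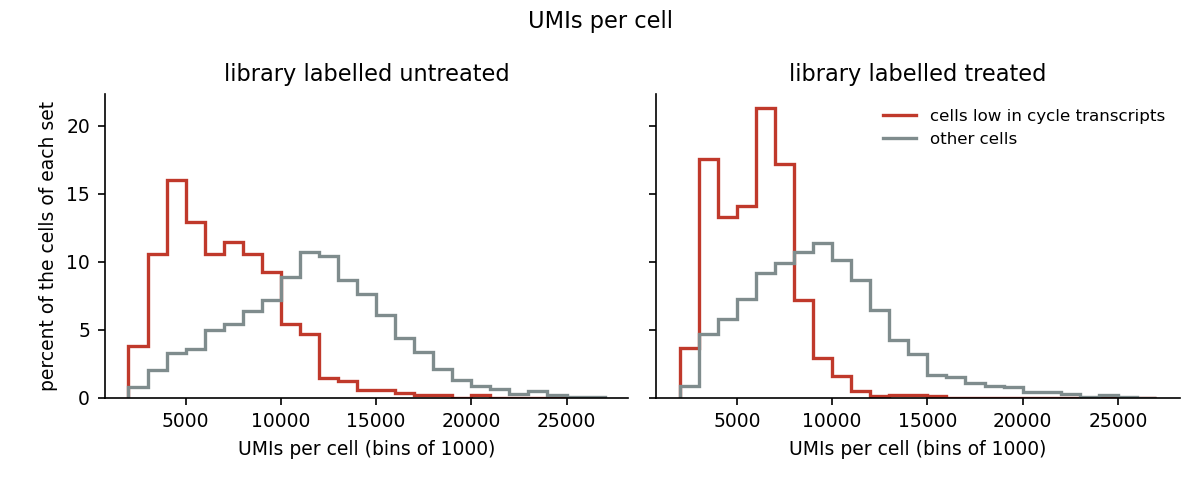
UMIs per cell in bins of 1000 (x axis) and the percent of the cells of each set in each bin (y axis), for the 1371 cells low in cycle transcripts and the 9445 other cells, by library. The low cells lie to the left of the other cells in both libraries, with medians of 6624 and 6062 UMIs.

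The difference in share between the libraries was small, and its size rested on depth and on 1 condition. After thinning cells to 4351 UMIs, the rule took 25.4% of the remaining cells labelled untreated and 20.4% of those labelled treated. Shallower cells were left out of these shares. They were 110 low and 135 other untreated cells, and 221 low and 446 other treated cells. Without the limit on ID1 and ID3 the untreated share was 19.3%, 6.25 percentage points above the treated share. Requiring CCNB2, CENPF, UBE2C and PLK1 at 0 as well left 7.15% and 6.92%. The 2 libraries shared 48 cell barcodes, and 5 untreated and 8 treated cells among the low cells carried 1 of these. Across both libraries, 2 of these barcodes met the rule in each.

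Most cells outside the set missed it by their mitotic transcripts. Of the untreated cells 1220 failed that condition alone, 248 the limit on ID1 and ID3 alone and 232 the limit on G1/S genes alone. Of the treated cells these were 2034, 50 and 307, and 6 failed the HIST1H4C limit alone. Cells with a single mitotic UMI that met the other conditions numbered 247 and 618. In these, UBE2C, a mitotic ubiquitin-conjugating enzyme gene outside the rule, had 59.0 counts per 1000000 counts (CPM), against 49.8 in cells without such a UMI, among untreated cells, and 64.4 against 54.0 among treated cells. CENPF, also outside the rule, had 41.0 against 37.1 CPM among untreated and 76.4 against 49.3 among treated cells. The transcription factor gene SOX3 had 56.9 against 79.6 and 58.2 against 64.8. Cells with 3 and with 4 of the G1/S genes were close in the replication clamp gene PCNA. It had 511 and 531 CPM in the untreated and 542 and 603 in the treated cells. The HIST1H4C limit was met by 88.2% of the untreated and 67.6% of the treated cells, but was rarely the only one missed. Among the low cells, 511 of the 550 untreated and 739 of the 821 treated cells had under 10 counts per 10000.

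The rule reads 4 mitotic genes, and the other G2 and M phase genes were low with them. In each library 56 of 57 such genes were at least 1.5-fold lower in the low cells than in the other cells. None was 1.5-fold higher. Over all genes with enough UMIs, 8.17% of 9583 were that much lower and 1.91% higher in the first library, and 8.12% of 9868 lower and 1.97% higher in the second. The median log2 ratio of the list was -3.19 and -3.16, beside -0.03 and -0.0012 over all genes. Per cell, the 57 genes together gave a median of 19.2 counts per 10000 in the low cells and 39.2 in the other cells labelled untreated, and 22.6 and 79.1 in those labelled treated.

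**Figure D2:**
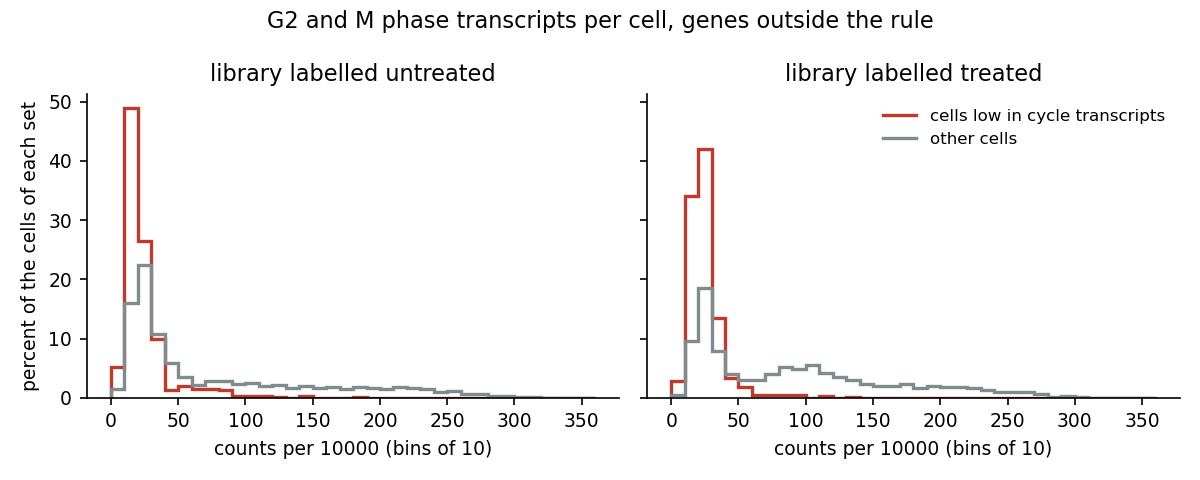
Summed counts of the 57 G2 and M phase genes per 10000 counts of a cell in bins of 10 (x axis) and the percent of the cells of each set in each bin (y axis), by library. The low cells form 1 narrow peak, with 8% of the untreated and 4.14% of the treated cells at 50 or more, while 43.3% and 59.5% of the other cells reach that level.

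Genes were ranked by the interval bound nearest to no change, in the library where that bound was nearer, so that genes with few UMIs rank lower than their ratio alone would put them. The 12 lowest genes outside the rule in this ranking were mostly genes of mitosis. They were AURKB and CDCA8 of the chromosomal passenger complex, SGOL1, which guards centromeric cohesion, NUF2 and NDC80 of the kinetochore, the kinesins KIF14 and KIF2C, ASPM, CKAP2L and DLGAP5 of the spindle, UBE2C and the DNA helicase PIF1. UBE2C had 49.8 CPM (192 UMIs) in the low cells and 619 in the other cells labelled untreated. In the library labelled treated it had 54.0 CPM (264 UMIs) and 751. CKAP2L had 1.04 CPM from only 4 UMIs against 43.0, and 3.68 CPM from 18 UMIs against 67.6. Against other cells that also lacked the 4 mitotic genes of the rule, the list's median was 0.11 in the untreated library, and several of the 12 genes turned to higher. Over the 12 genes the log2 ratio ran from -5.38 for CKAP2L to -3.64 for UBE2C in the first library and from -4.35 for AURKB to -3.58 for CDCA8 in the second.

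The upstream sequence of these genes carries letters known from mitotic promoters. As background, many such genes hold the CHR element TTTGAA near the start of transcription, with CCAAT boxes further upstream, and are kept silent through it outside G2 and M phase. In the RefSeq promoter table of build GRCh38.p14, TTTGAA stood on either strand within 250 bases before the start in 24 of the 46 matched G2 and M phase genes (52.2%), beside 13.3% of all 35116 promoters. The S phase list had it in 3 of 53 (5.66%). CCAAT stood in 33 of the 46 (71.7%) and in 29 of the 53 (54.7%), beside 32.0% of all. GCGGGAA, an E2F-like motif, stood in 5 of the 46 (10.9%) and in 19 of the 53 (35.8%), beside 5.52%. In all 8 motifs were searched, and the other 5 differed less or were rare. The longer E2F-like forms TTTCGCGC and TTTGGCGC stood in 0 and 1 of the 46 and in 3 and 5 of the 53, beside 0.439% and 0.550% of all, and the CHR variant TTCGAA in 2 and 1, beside 1.19%. The E-box forms CAGCTG and CATCTG stood in 4 and 3 of the 46 and in 7 and 7 of the 53, beside 13.99% and 12.2%. A match is a description of letters and not a binding site.

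The 100 bases before the start are shown for MKI67 of the rule, for CKAP2L, PIF1 and CDCA8 of the 12 lowest genes, and for the markers NHLH1 and SOX3, which were high in the same cells. Capitals mark TTTGAA and CCAAT on either strand, which share 1 letter where they run together in MKI67 and CDCA8. MKI67 lies at chr10:128126424-128126523 (minus strand), CKAP2L at chr2:112764610-112764709 (minus), PIF1 at chr15:64825648-64825747 (minus), CDCA8 at chr1:37692416-37692515 (plus), NHLH1 at chr1:160366971-160367070 (plus) and SOX3 at chrX:140505070-140505169 (minus).
MKI67: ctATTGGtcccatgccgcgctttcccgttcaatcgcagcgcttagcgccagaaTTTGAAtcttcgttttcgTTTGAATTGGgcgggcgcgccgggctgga
CKAP2L: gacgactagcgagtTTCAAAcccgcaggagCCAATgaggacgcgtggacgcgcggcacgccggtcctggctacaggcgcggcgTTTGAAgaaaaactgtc
PIF1: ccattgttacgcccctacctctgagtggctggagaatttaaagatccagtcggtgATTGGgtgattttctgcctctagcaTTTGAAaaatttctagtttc
CDCA8: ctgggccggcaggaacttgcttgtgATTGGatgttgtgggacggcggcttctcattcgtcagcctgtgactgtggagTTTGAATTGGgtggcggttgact
NHLH1: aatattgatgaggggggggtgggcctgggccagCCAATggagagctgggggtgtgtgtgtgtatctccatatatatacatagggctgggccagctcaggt
SOX3: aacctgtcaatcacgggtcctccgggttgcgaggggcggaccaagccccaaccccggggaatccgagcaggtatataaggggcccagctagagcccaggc
MKI67, CKAP2L, PIF1 and CDCA8 were picked as examples after the search because they hold TTTGAA close to the start, so their having it is no result. Of the 12 lowest genes 11 had a promoter in the table and 5 of these held TTTGAA in the 250 bases, and of the 12 highest genes 11 had one and 0 held it.

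Genes of S phase were lower by far less. Of 60 such genes outside the rule with enough UMIs, 24 were at least 1.5-fold lower in the untreated library and 25 in the treated library, and none was 1.5-fold higher. The median log2 ratio was -0.34 and -0.40. At the low end were the nucleotide synthesis genes TK1 (10.4 CPM against 63.0 untreated, 9.40 against 68.3 treated) and RRM2 (16.1 against 101 and 26.8 against 134). At the other end the replication licensing gene MCM2 was higher, at 38.9 against 27.7 CPM and 39.1 against 31.8. PCNA nearly kept its level, at 432 against 458 CPM and 474 against 539. The low cells thus carried much of the replication machinery's RNA, with 4502 and 4846 CPM over the list against 6054 and 6625.

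The G1/S genes of the rule were low by the choice of cells, yet not all 8 were lower. MCM5 had 80.1 CPM in the low and 68.8 in the other untreated cells, and 91.2 and 75.8 in the treated ones. GINS2, a subunit of the replicative helicase, had 162 against 164 and 147 against 157. CDC45, its partner in the helicase, was the lowest of the 8, at 9.59 against 42.4 and 12.1 against 48.9. UNG, a uracil-DNA glycosylase gene, was lower in the untreated cells, at 28.8 against 35.9, and higher in the treated cells, at 53.4 against 45.2.

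To separate choice from measurement, the UMIs of each cell were split at random into 2 parts, the rule was applied to the first and the levels were read in the second. With fewer UMIs the rule then took 1005 untreated (24.3%) and 1569 treated cells (23.5%), of which 535 and 811 were also chosen from all UMIs. In the second part the 4 mitotic genes together stood at 0.119 and 0.116 of their level in the other cells. At least 1 of their UMIs was seen in 29.0% of the chosen untreated cells and 73.8% of the others, and in 33.1% and 82.0% of the treated ones. UBE2C stood at 0.0805 and 0.0660 of the other cells. CCNE1 and CCNE2 turned from lower to higher, with log2 ratios of 0.22 and 0.05 untreated and 0.39 and 0.26 treated, and MCM5 had 0.55 and 0.61. The low level of mitotic RNA was thus measured in UMIs that did not choose the cells, and that of the G1/S cyclins was not.

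Of the 4 markers named for these cells, SOX3, NHLH1 and DLL3 were higher in both libraries and H1F0 in 1. SOX3, a transcription factor gene of neural progenitors, had 79.6 CPM in the low and 40.7 in the other untreated cells, and 64.8 and 29.7 in the treated cells. The log2 ratios were 0.97 (0.79 to 1.14) and 1.12 (0.95 to 1.30). NHLH1, which encodes a neuronal basic helix-loop-helix factor, had 205 against 107 CPM and 345 against 151, with log2 ratios of 0.93 (0.82 to 1.04) and 1.20 (1.12 to 1.27). DLL3, an inhibitory Notch ligand of neuroendocrine cells, had 121 against 81.9 and 142 against 81.9, with log2 ratios of 0.56 (0.42 to 0.70) and 0.79 (0.68 to 0.91). H1F0, which encodes the linker histone H1.0 known from non-dividing cells, had 377 CPM against 199 in the untreated library. In the treated library it had 164 against 168, so only 3 of the 4 markers were higher there than in all other cells together. The markers came with the definition of the cells, so their levels are a description and no check of the label.

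**Figure D3:**
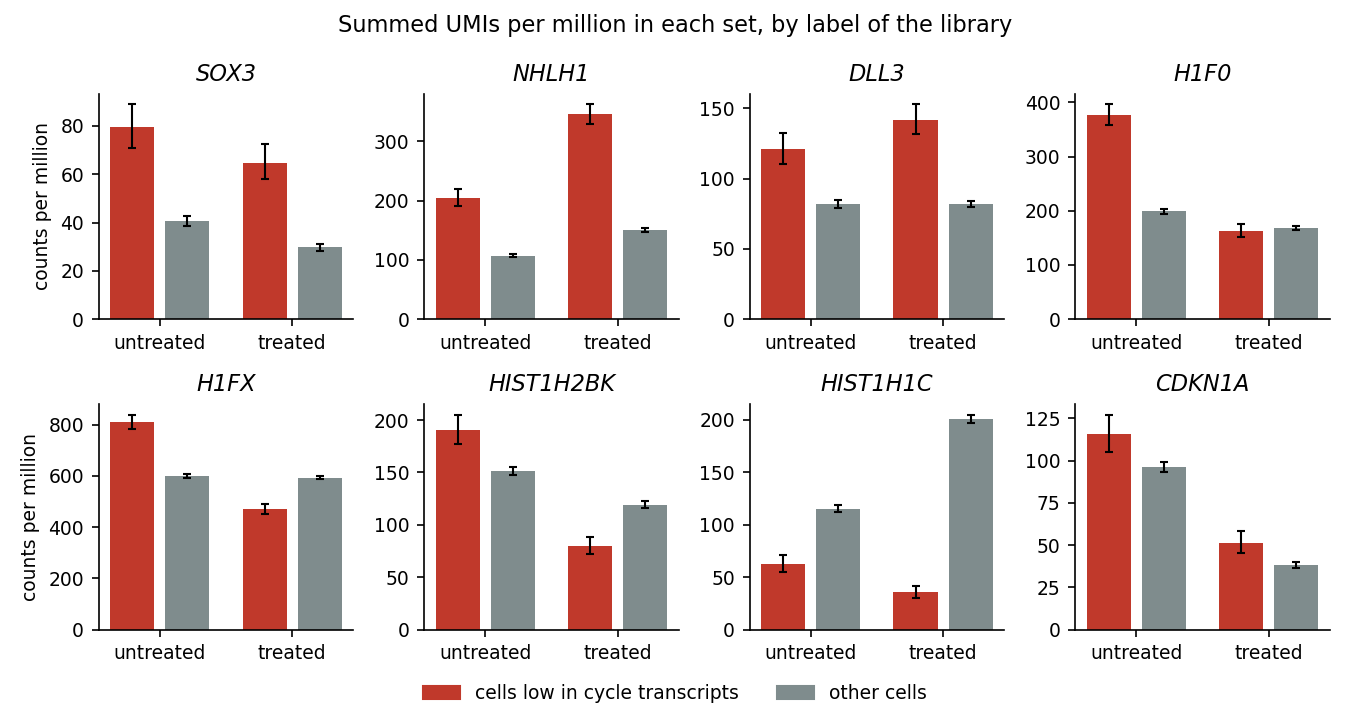
Summed UMIs in CPM (y axis) with 95% exact intervals for 8 genes in the low cells (red) and the other cells (grey) of each library, with 1 library per label. SOX3, NHLH1 and DLL3 stand higher in the red bars of both libraries, while H1F0, H1FX and HIST1H2BK do so in the untreated library only.

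Depth bears on the marker result in 1 library. Among the treated cells under 5000 UMIs the ratio of low to other cells was 2.33 for SOX3 (1.64 to 3.30), 1.88 for NHLH1 and 1.71 for DLL3, about as large as in the deeper cells with 2.19, 2.35 and 1.84. Among the untreated cells under 5000 UMIs it was 0.989 for SOX3 (0.585 to 1.65), 1.07 for NHLH1 (0.837 to 1.35) and 1.33 for DLL3 (0.959 to 1.83). In the deeper untreated cells it was 2.15, 1.96 and 1.48. H1F0 was higher in shallow untreated cells of both sets, with 455 CPM in the low and 434 in the other cells under 4000 UMIs, and 275 and 185 from 9000 UMIs.

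The marker ratios also depended on which other cells were compared. Against other cells that also lacked mitotic transcripts, the log2 ratio of SOX3 was 0.22 in the untreated and -0.0025 in the treated library, and that of DLL3 0.30 and 0.05. NHLH1 fell to 0.11 and 0.46. H1F0 had 0.17 and 0.32, so in this comparison it was higher in the treated library as well. Cells that failed only the limit on ID1 and ID3 had 74.5 CPM of SOX3 untreated and 83.5 treated, and cells that failed only the G1/S limit had 63.6 and 60.7. Cells that failed only the mitotic condition had 29.9 and 28.6. SOX3 was thus lower where mitotic RNA was present, and the cells that missed only 1 of the other limits had about the level of the low cells. H1F0 was highest in untreated cells above the ID limit, with 585 CPM, beside 377 in the low cells and 156 in cells with mitotic RNA alone.

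In cells thinned to 4351 UMIs, most low cells carried a marker but few carried all. SOX3 was seen in 24.8% of 440 low and 14.3% of 3452 other untreated cells, and in 23.3% of 600 and 11.4% of 5412 treated cells. NHLH1 was seen in 51.1% and 32.4%, and in 75.5% and 45.9%. Unthinned, with the other cells deeper, SOX3 was seen in 31.6% and 31.0% of the untreated cells, and in 27.4% and 20.3% of the treated cells. All of SOX3, DLL3 and NHLH1 were seen in 5.23% of the untreated and 8.17% of the treated low cells, against 1.36% and 2.44% of the other cells. None of them was seen in 23.2% and 10.7% of the low cells, against 42.4% and 36.2% of the others. A culture of 1 line holds no cell type that should lack these genes, so the part of free RNA in these shares was not measured.

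The 12 highest genes outside the rule, ranked by the same bound, were mostly low in level and mixed in role. SOX3 and NHLH1 were among them with MYT1, a zinc finger factor of neuronal differentiation, the tight junction gene CLDN5, the signalling gene RGS16, the urokinase receptor gene PLAUR, the cornified envelope and hair genes SPRR1A and TCHH, and NYAP2, DCBLD1, HECW2 and PCBP4. Of the 12, NYAP2 had the largest log2 ratio in the untreated library, 1.47 (1.08 to 1.84) from 73 UMIs, and CLDN5 in the treated library, 1.23 (0.83 to 1.61) from 68 UMIs. MYT1 had 50.3 CPM against 26.3 and 60.9 against 36.5. In the untreated cells within 4396 to 7705 UMIs SPRR1A turned to a log2 ratio of -0.17. Against treated cells without mitotic transcripts CLDN5 turned to -0.03, TCHH to -0.04 and RGS16 to -0.18. Over 9320 genes, 32 (0.343%) were at least 1.5-fold higher in both libraries and 448 (4.81%) lower in both.

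**Figure D4:**
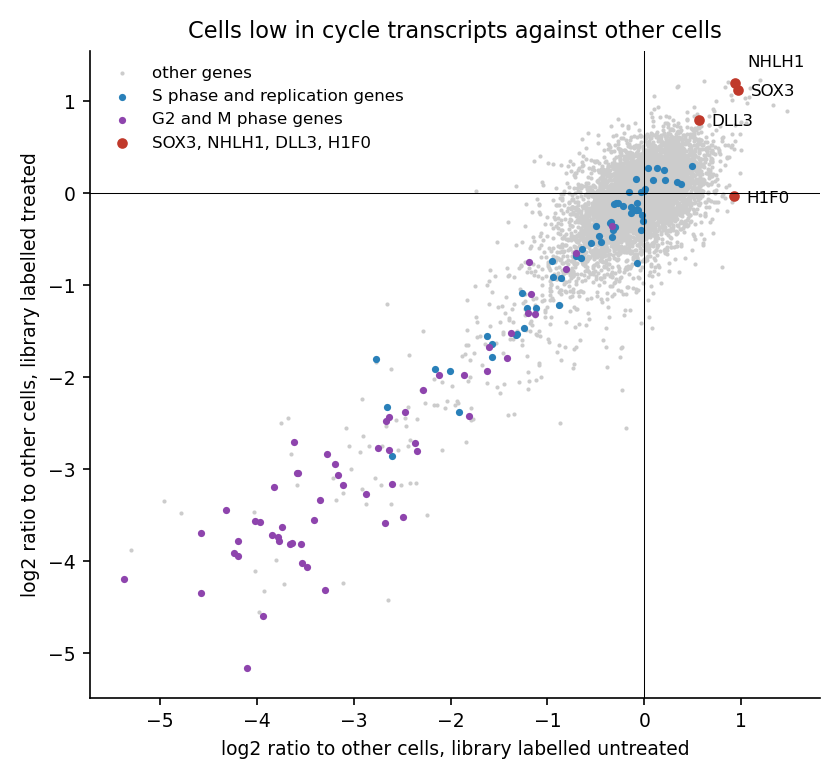
Log2 ratio of the low cells to the other cells in the untreated library (x axis) and in the treated library (y axis), 1 point per gene with at least 20 expected UMIs in each, the genes of the rule left out. G2 and M phase genes run down the diagonal to about -5 while S phase genes lie closer to 0, between -2.77 and 0.49 on the x axis, and H1F0 stands apart from the other markers at 0.92 and -0.04.

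A few genes of the wider neurogenic list were higher. Of 37 neural progenitor and neurogenic transcription factor genes with enough UMIs, 5 were at least 1.5-fold higher and 1 lower in the untreated cells, and 3 higher and 1 lower in the treated cells, beside 1.91% and 1.97% of all genes higher and 8.17% and 8.12% lower. The medians were 0.23 and 0.05, and SOX3 and NHLH1 belong to the list. PAX6, a factor of neural and eye progenitors, was the low one, at 37.3 CPM against 62.3 and 34.1 against 63.1. SOX2, a progenitor factor, had 112 against 81.1 and 163 against 129. ATOH1, the basic helix-loop-helix factor required for Merkel cells, had 7.52 against 6.23 from 29 UMIs and 6.75 against 6.42 from 33. Among the Merkel cell lineage genes, 25 measured untreated and 24 treated, the ends by the mean of both libraries' log2 ratios were POU4F3, a factor that acts with ATOH1, at 15.03 CPM against 8.87 and 13.1 against 9.34, and the neuropeptide gene CCK, at 14.3 against 19.9 and 6.75 against 14.6. ISL1, a LIM factor of the lineage, had 313 against 218 and 348 against 263. KRT20, the keratin by which this cancer is recognised, had 291 against 296 and 266 against 246.

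The Notch list held the ligand gene DLL3 and HES6, a non-repressing relative of the Notch targets. HES6 had 5809 CPM against 4333 and 5042 against 3779, with the same log2 ratio of 0.42 in both libraries. Of its 15 genes measured untreated none was 1.5-fold higher, beside 1.91% of all genes, and of its 14 measured treated 2 were, beside 1.97%, namely DLL3 and NOTCH4, the latter at 11.9 against 7.17 CPM from 58 UMIs. HES1, the main repressor downstream of Notch receptors, had 31.9 against 21.6 CPM and 4.91 against 3.80 CPM.

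The list of genes tied to leaving the cycle was about even, though more of its genes passed 1.5-fold lower than higher. Its median log2 ratio was -0.02 untreated and -0.03 treated, with 19 genes above 0 and 22 below in each library. Of 41 measured CDK inhibitor and quiescence genes, 2 were at least 1.5-fold higher in the untreated and 0 in the treated cells, and 6 and 11 were lower. Over all genes 1.91% and 1.97% were that much higher and 8.17% and 8.12% lower. CDKN1A, which encodes p21, had 116 CPM against 96.2 and 51.5 against 38.3. CDKN1B, which encodes p27, had 28.0 against 36.0 and 38.8 against 59.8. CDKN3, a phosphatase gene known to be high in mitosis, was among the lower ones, at 70.2 against 382 and 51.1 against 342. CITED2, a quiescence gene of stem cells, had 26.2 against 13.2 in the untreated cells, but a log2 ratio of -0.51 in those within 4396 to 7705 UMIs. Of 12 G1 cyclin and kinase genes 8 had enough UMIs in each library. CCND1 and CCND2 were not among these, being scarce in each library as a whole, and had 0 UMIs in the low cells of both. CCND3 had 53.7 CPM against 73.1 and 46.4 against 60.1. With 3 UMIs as the limit of a count of 0, a level of up to 0.778 CPM untreated and 0.613 CPM treated is allowed for each of CCND1 and CCND2.

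Ribosomal protein genes were slightly higher. All 77 measured genes had a log2 ratio above 0 in the untreated cells, from 0.01 for RPS3 to 0.37 for RPL22, as had 76 of 78 in the treated cells, and the medians were 0.21 and 0.18. Their share of a cell's UMIs had a median of 23.6% in the low and 20.5% in the other untreated cells, and of 24.3% and 21.4% in the treated cells. Mitochondrially encoded RNA was lower, at 4.52% against 5.02% and 4.25% against 4.63%. MALAT1, a nuclear RNA, had 24451 CPM against 28267 and 18836 against 25503. These 3 measures of RNA makeup move with the comparison, and their part in the gene ratios was not tested beyond the scaling alternatives.

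Outside the keratinocyte list, marker lists of other cell types gave at most 21.3 CPM in the low cells. T cell markers gave 1 UMI in the untreated and 0 in the treated low cells, with 5 and 6 of 6 genes at 0. Myeloid markers gave 12 and 13 UMIs, with 6 and 5 of 8 genes at 0. The melanocyte list gave 9 and 0 UMIs and the fibroblast list 82 and 76. The endothelial list had 13.5 CPM in the low and 6.11 in the other untreated cells, and 14.3 and 6.08 in the treated cells, with CLDN5 giving all 52 UMIs of the low untreated and 68 of the 70 of the low treated cells. B cell markers gave 44 and 25 UMIs and erythroid markers 14 and 5. The keratinocyte list had 382 CPM in the low and 406 in the other untreated cells, and 317 and 363 in the treated cells. In the low cells 3 and 4 of its 8 genes were at 0.

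The 10 most variable genes among the low cells, ranked by the smaller of both libraries' variance over mean, were MALAT1, HLA-C, HLA-B, HES6, PTTG1, UBE2S, CCER2, TUBA1A, HMGB1 and the keratin-associated gene KRTAP17-1. Thinned to 4351 UMIs, the variance over the mean was 28.7 untreated and 15.8 treated for MALAT1, where counting alone gives about 1. PTTG1, the securin gene of mitosis, was seen in 45.0% and 38.2% of the low cells, and 57.4% and 61.0% of its UMIs lay in the top 10% of cells. UBE2S, a ubiquitin-conjugating enzyme gene of mitotic exit, had 5.38 and 3.40, and was seen in 84.3% and 90.2% of the low cells. Low cells with UMIs of PTTG1 or UBE2S lacked the 4 mitotic genes of the rule by choice, and their phase was not tested. HLA-C and HLA-B had 5.42 and 4.77 untreated and 4.94 and 4.83 treated, and as near-identical genes they may share reads. In the untreated cells HES6 with 14.4, TUBA1A with 10.1, KRTAP17-1 with 7.69 and CCER2 with 5.84 stood above HLA-C, while in the treated cells they had 3.80, 2.85, 2.60 and 3.08. HMGB1 had 4.99 and 2.69. KRTAP17-1 was seen in 25.9% and 26.5% of the cells. TUBA1A has near-identical tubulin genes.

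In further lists the medians lay between -0.26 and 0.18. Medians of the log2 ratio of low to other cells were 0.09 untreated and 0.13 treated for secretory granule and synaptic genes, -0.02 and -0.26 for TGF-beta and BMP feedback genes, and -0.01 and -0.04 for class I HDACs and their partners. They were 0.18 and 0.04 for p53 targets, 0.17 and 0.13 for MYC and ribosome biogenesis genes, -0.03 and 0.02 for nuclear-encoded respiratory chain genes, and -0.09 and -0.05 for glycolysis genes. Stress and immediate early genes had 0.04 and 0.10, HLA class I and antigen presentation genes -0.17 and -0.02, and apoptosis genes 0.04 and 0.08. Of the drug's named targets, HDAC1 had 77.8 CPM in the low and 80.4 in the other untreated cells, and 52.1 and 53.9 in the treated cells. HDAC2 had 597 against 633 and 528 against 531. In the MYC list the ends were MXD3, a repressor that opposes MYC and is known from S phase, at 5.44 CPM against 37.5 and 7.36 against 63.0, and MYCL, the MYC relative of neuroendocrine cancers, at 35.5 against 25.6 and 48.9 against 31.9. SAP30, a subunit of the SIN3 deacetylase complex, had 52.6 against 106 and 57.4 against 135.

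Between the libraries, the low cells labelled treated differed most in genes that were lower. Of 9299 genes, 295 (3.17%) reached a 2-fold lower level in the low cells labelled treated than in those labelled untreated, and 77 (0.828%) a 2-fold higher one. In the other cells, 1087 of 13904 (7.82%) were lower and 100 (0.719%) higher, with more UMIs and therefore more genes of low level. Ranked by the interval bound nearest to no change, not by the ratio itself, the 10 lowest were TCEA3, the Notch target HES1, SYNGR4, the matrix metalloproteinase gene MMP9, the RNA decay factor gene ZFP36L1, FEZ1, the calcitonin-related gene CALCB, BCL2L12, CEND1 and PTGIR. SYNGR4 had 152 CPM (587 UMIs) untreated and 24.1 CPM (118 UMIs) treated, a log2 ratio of -2.66 (-2.95 to -2.37) beside -2.50 in the other cells. HES1 had -2.70 beside -2.50. ZFP36L1, with 79 and 8 UMIs, had -3.65 (-4.91 to -2.60) beside -2.51. CEND1, which promotes cell cycle exit of neurons, had 49 UMIs and 3.

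The 10 highest between the libraries by the same bound were RASA4, ARHGAP11B, FEV, TRAPPC5, FAM21C, MRPS24, TBC1D9B, FAM64A, SLC7A4 and GPC1. FEV, the factor of serotonin neurons, had 68.9 CPM (266 UMIs) untreated and 144 CPM (702 UMIs) treated, a log2 ratio of 1.06 (0.85 to 1.27) beside 0.61 in the other cells. FAM64A, a mitotic regulator gene, had 58.8 and 124 CPM in the low cells, 1.08 beside 0.44. GPC1, a glypican gene, had 4.15 CPM from 16 UMIs and 13.9 CPM from 68, 1.75 beside 0.26. RASA4, ARHGAP11B and FAM21C have near-identical copies in the genome and are uncertain. With a pseudocount of 0.1 per 10000 no gene was 2-fold higher.

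Several linker and variant histone genes differed between the libraries by more in the low cells than in the other cells, a difference that was not tested. As background, H1F0, H1FX and HIST1H1C encode linker histones, and HIST1H2BD, HIST1H2BJ and HIST1H2BK encode forms of H2B that can be made outside S phase as polyadenylated RNA. In the low cells H1F0 had 377 CPM labelled untreated and 164 labelled treated, a log2 ratio of -1.20 (-1.33 to -1.08), beside -0.25 in the other cells. HIST1H2BK had 191 and 79.9 CPM, with -1.25 (-1.44 to -1.08) beside -0.34. H1FX had 810 and 471 CPM, with -0.78 (-0.86 to -0.70) beside -0.02. HIST1H1C had 63.0 and 35.6 CPM, with -0.82 (-1.11 to -0.54), while in the other cells it was higher, at 0.80. HIST1H2BD, with 50 and 17 UMIs, had -1.90 (-2.79 to -1.08) beside -0.29, and HIST1H2BJ, with 43 and 7 UMIs, -2.96 (-4.36 to -1.80) beside -0.82. In cells that failed only the limit on ID1 and ID3, 248 untreated and 50 treated, H1F0 had 585 and 263 CPM and HIST1H2BK 253 and 106. The lower level of H1F0 and HIST1H2BK was thus not particular to the low cells. H1F0 had 162 and 112 CPM in cells that failed only the G1/S limit, and 156 and 125 in those that failed only the mitotic condition.

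**Figure D5:**
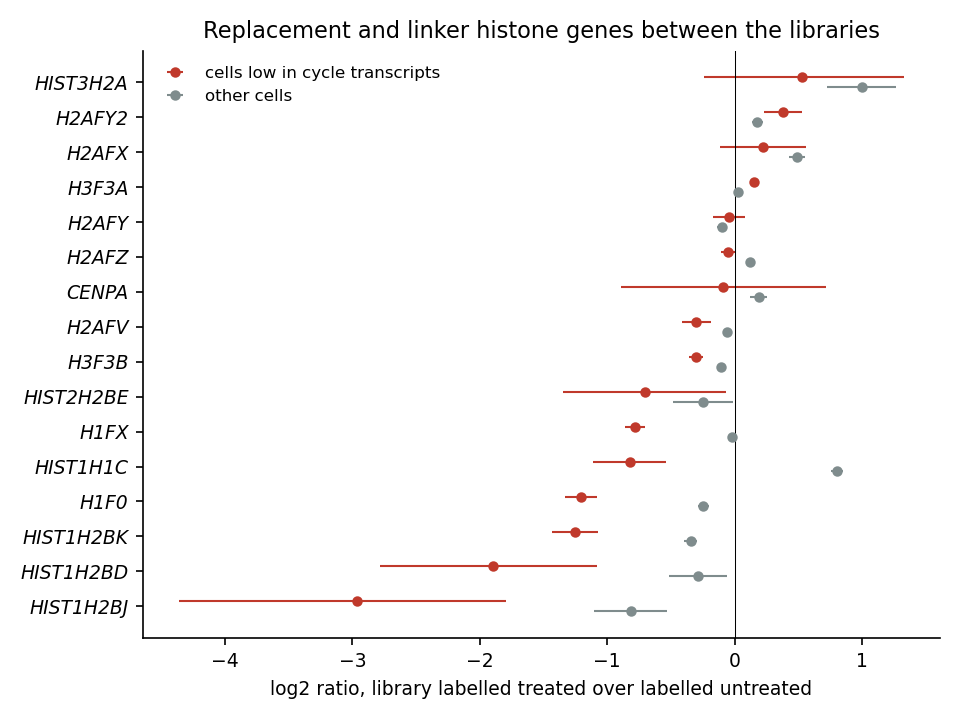
Log2 ratio of the library labelled treated over that labelled untreated (x axis) with 95% exact intervals for the 16 replacement and linker histone genes with enough UMIs (y axis), in the low cells (red) and the other cells (grey). From HIST1H2BJ to H1FX the red points lie to the left of the grey ones, while H3F3A and H2AFY2 lie above 0.

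The difference between the sets was not even over the list. Of its 16 measured genes, 4 were at least 2-fold lower in the low cells labelled treated and 7 at least 1.5-fold lower, beside 3.17% and 8.39% of all genes, and none was 1.5-fold higher, beside 6.04%. H3F3A, H2AFY and H2AFZ had log2 ratios of 0.15, -0.04 and -0.05. Over its alternatives H1F0 had between -1.46, in cells within 4396 to 7705 UMIs, and -0.9997, with the rule and levels in separate UMIs. The gap stood at both depths. In the low cells under 5000 UMIs H1F0 had 484 CPM untreated and 184 treated, and in the deeper ones 355 and 158. The H2B genes are near-identical to one another, so their counts are uncertain.

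Within a library the same genes stood on different sides. In the untreated library H1F0, H1FX, HIST1H2BK and HIST1H2BD had log2 ratios of 0.92, 0.43, 0.33 and 0.81 between low and other cells, and in the treated library -0.04, -0.33, -0.58 and -0.80. HIST1H1C was lower in both, at -0.87 and -2.50. These signs rest on the cells compared. Against other cells without mitotic transcripts H1F0 had 0.17 and 0.32, HIST1H1C 0.15 and 0.08, and HIST1H2BD 0.26 in the treated library. Within 4396 to 7705 UMIs HIST1H2BD had -0.05 in the untreated library. The replication-dependent histone genes, of which the rule limits HIST1H4C, had medians of -0.72 over 10 genes and -1.93 over 14. At least 1.5-fold in opposite directions were 3 of 9320 genes (0.0322%), namely HIST1H2BD, C15orf57 and TWSG1, of which C15orf57 and TWSG1 fell outside the rule for naming and were chosen after their values were seen.

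Several other lists also held genes that were 2-fold lower in the low cells labelled treated, beside 3.17% of all genes lower and 0.828% higher. Of 40 CDK inhibitor and quiescence genes 5 were 2-fold lower, of 40 secretory granule and synaptic genes 4, of 29 stress and immediate early genes 4 and of 24 apoptosis genes 3, and none of these lists had a gene 2-fold higher. Of 21 p53 target genes 3 were 2-fold lower and none higher, with a median log2 ratio of -0.25 beside -0.30 for the 16 replacement and linker histone genes. Among the p53 targets, CDKN1A had -1.17 (-1.40 to -0.94) and BBC3 -1.80, beside -1.33 and -1.63 in the other cells. The G2 and M phase genes had a median of 0.21 and the S phase genes of 0.05, beside 0.03 over all genes. Of 37 neurogenic factor genes none was 2-fold higher and 2 were 2-fold lower, and NHLH1 had 0.75 (0.63 to 0.88) beside 0.49 in the other cells. SOX3 had -0.30 (-0.53 to -0.06) and DLL3 0.23 (0.06 to 0.40). Of 15 Notch genes NOTCH4 was 2-fold higher, at 4.41 and 11.9 CPM from 17 and 58 UMIs, and HES1 2-fold lower. Of 24 Merkel cell lineage genes 3 were 2-fold lower, among them CCK at -1.08 and SCGN, a calcium sensor gene, at -1.28.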

How the data were processed

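Single-cell 3′ libraries of WaGa cells (10x Chromium v2.0, per the labels' protocols) were used, 1 untreated and 1 treated with domatinostat. Cell Ranger, Seurat and hg19 are named, without versions, in the submitters' processing notes. The aligner settings and cell filters are not given in the sources used here. A single table was deposited by the authors, with 32742 genes and 10816 cells on a natural log scale, each value being the natural log of 1 plus counts per 10000. These were turned back into UMIs by taking the smallest value of a cell as 1 UMI. This gave whole UMIs for 100% of the values above 0, within 1e-06. There were 0 unused columns, no cell filter was added and doublets were not called.

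UMIs were summed per set, divided by the set's total and compared as ratios with 95% exact intervals (Clopper-Pearson, scipy 1.17.1). Genes needed 20 expected UMIs in the low cells, or in both libraries' low cells. Folds of 1.5 (low against other cells) and 2 (between libraries) were counted. The total was 3858407 UMIs in the untreated and 4891638 in the treated low cells. Alternatives thinned, scaled, weighted and restricted the cells.

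The members, the 22 gene lists and the tests were chosen with earlier results of these data known. Genes named were the 12 highest and lowest ratios to other cells and the 10 highest and lowest between libraries, both ranked by the interval bound nearest to 1 (for the first in the library where it was nearer), rule genes and markers, 2 at each end of a list by the mean log2 ratio, and the 10 most variable by the smaller of both libraries. Other list members named were chosen after their values were seen.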

Additional observations from a re-analysis of the deposited data

Results flagged for a closer look

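Of the 9320 genes measured in both libraries, 3 were at least 1.5-fold apart between low and other cells in opposite directions. HIST1H2BD, an H2B gene, had a log2 ratio of 0.81 (0.35 to 1.24) in the untreated and -0.80 (-1.60 to -0.10) in the treated library, from 50 and 17 UMIs in the low cells. C15orf57 had -0.65 (-1.48 to 0.08) from 16 UMIs and 0.59 (0.03 to 1.11) from 34. TWSG1, which encodes a BMP-binding protein, had -0.59 (-1.36 to 0.10) from 18 UMIs and 0.66 (0.21 to 1.08) from 51. The difference between the libraries was not tested for any of the 3, since each label has 1 library.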

How the results depend on the processing

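No paired analysis was possible because each label has 1 library, and no library can be left out. Of the results with alternatives, 73 values of shares, counts, depths and held-out ratios moved within their error or within 1.5 times and 45 moved further. Among these values only the difference in share between the libraries was checked for direction, and it stayed negative. Changes in direction of single genes and lists are given further on.

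The share of low cells was 25.4% untreated and 20.4% treated after thinning to 4351 UMIs, a difference of -4.92 percentage points, and 32.6% and 27.8% after thinning to 3000 UMIs (-4.77). Cells with fewer UMIs than the thinning depth were left out of these shares. Without the ID condition the untreated share was 19.3% (-6.25). With fewer than 3 G1/S genes the shares were 9.89% and 8.65%, with fewer than 5 they were 16.1% and 15.002%, with 4 further mitotic genes at 0 they were 7.15% and 6.92%, and without cells under 5000 UMIs, an alternative chosen after seeing the data, 10.2% and 9.39%. With another random split, also added, the treated held-out mitotic ratio was 0.130.

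The counts of genes depended on the minimum. With 5 expected UMIs, 548 genes were 1.5-fold higher and 1369 lower in the untreated low cells, 495 and 1400 in the treated ones, and 256 and 926 were 2-fold higher and lower between libraries. With 100 expected UMIs these were 28 and 292, 35 and 310, and 9 and 44. Adding 0.1 per 10000 to each level gave 19 and 310, 21 and 308, and 0 and 53. Thinned to 4351 UMIs, 123 genes were higher in the treated low cells and 164 lower between libraries. Within 4396 to 7705 UMIs, 424 genes were lower in the untreated low cells, 97 higher in the treated ones and 117 lower between libraries. Without mitochondrial and ribosomal protein genes in the total, 277 were higher in the untreated low cells. With 4 further mitotic genes at 0, 161 were lower between libraries. Against other cells without mitotic transcripts, 258 genes were lower in the untreated low cells, and 320 were higher and 382 lower in the treated ones.

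Direction changed mainly against other cells without mitotic transcripts. By construction these hold no UMI of MKI67, TOP2A, CDK1 and CCNB1 and miss at least 1 of the other conditions. In the untreated library the log2 ratio was then 0.32 for ASPM, 0.19 for AURKB, 0.14 for CDCA8, 0.49 for CDKN3, 0.87 for DLGAP5, 0.15 for FAM64A, 0.15 for HIST1H1C, 1.06 for KIF14, 0.26 for MXD3, 0.15 for NUF2, 0.79 for PTTG1, 0.0021 for SGOL1, 0.35 for UBE2C and 0.42 for UBE2S. The G2 and M phase median was 0.11 and the replication-dependent histone median 0.39. In the treated library it was 0.12 for ARHGAP11B, 0.14 for CCK, 1.12 for CDCA8, 0.0486 for CDKN3, -0.0318 for CLDN5, 0.40 for DLGAP5, 0.076 for H2AFZ, 0.0827 for HIST1H1C, 0.26 for HIST1H2BD, 0.10 for KIF2C, 0.12 for MXD3, 0.46 for NUF2, 0.27 for PIF1, 1.09 for PTTG1, -0.18 for RGS16, -0.0025 for SOX3, -0.0383 for TCHH and 0.38 for UBE2S, and the histone median was 0.21. Within 4396 to 7705 UMIs the untreated ratio was -0.51 for CITED2, -0.051 for HIST1H2BD and -0.17 for SPRR1A. With the rule and levels in separate UMIs it was 0.22 for CCNE1 and 0.052 for CCNE2 untreated, and 0.39 for CCNE1 and -0.29 for C15orf57 treated. Against cells below the ID limit ID3 had 0.0457 untreated. The cause of these changes in direction was not tested.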
